A study of Mus musculus with 9 samples.

Results

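The Wnt ligands, Frizzled receptors and secreted Wnt inhibitors of mouse cortical neurons, with the intracellular components Axin1, Axin2, Lef1, Tcf7l1, Tcf7l2 and Ctnnb1, were followed through 2 ways of raising neuronal activity. Members were every array probe whose RefSeq identifier matched a mouse symbol beginning with Wnt, Fzd, Sfrp or Dkk and a digit, or one of those components or the coreceptor genes Lrp5 and Lrp6. This gave 58 of the 41174 probes on the array, for 43 of the 18327 genes that could be named: 19 ligands, 10 Frizzled receptors, 8 secreted inhibitors and 6 intracellular components. Lrp5 and Lrp6 had no matched probe and were not analysed here. Of the 43 genes, 33 were bright enough to test, namely 13 ligands, all 10 Frizzled receptors, 5 inhibitors and 5 intracellular components.

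The neurons came from C57bl/6 embryos at embryonic day 15 and were kept for 12 days in culture. The control group had no treatment, the bicuculline group had 25 µM bicuculline for 6 h, and the KCl group had 50 mM potassium chloride for 6 h. Bicuculline blocks GABA-A receptors and so lifts inhibition from the network, while raised potassium depolarises the membrane directly. No genetic change is named for any group, each group holds 3 arrays, and the groups differ in the agent alone as far as the labels tell.

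Wnt proteins are secreted lipid-modified signals that bind Frizzled receptors on the cell surface. In the canonical branch, the Frizzled and an Lrp5 or Lrp6 coreceptor disable a destruction complex built on Axin, so that β-catenin (Ctnnb1) accumulates and drives target genes together with Tcf and Lef proteins. Other branches act on cell polarity and calcium. In cortical neurons the pathway is known for its part in dendrite growth, axon guidance and synapse formation, and secreted inhibitors of the Dkk and Sfrp families limit it from outside the cell.

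Signal was read on 1-colour arrays. A level below is a probe's signal in percent of the 75th percentile of the same array, and a difference is on the log2 scale with its limma standard error, from 1 fit over 14063 genes. A gene was called at an adjusted p under 0.05. The 75th percentile itself lay between 1588 and 3087 intensity units, between 65.0% and 75.9% of spots passed the software's test for signal well above background, and saturation was marked on 0 spots. The arrays lay on 3 slides: control 1 and 2 with bicuculline 1 and 2 on the first, control 3, bicuculline 3, KCl 1 and KCl 2 on the next, and KCl 3 alone on the last. The labels do not state that replicates of a group were separate cultures. The p-values therefore measure only how far these arrays scatter, and that scatter may be technical. The 7 neuronal markers tested, Map2, Tubb3, Rbfox3, Snap25, Syt1, Slc17a7 and Gad1, were well above background on every array, as were glial markers such as Gfap, Aqp4, Mbp and Olig2, so the cultures were mixed.

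Under bicuculline, 7 of the 33 tested members rose and 13 fell, against 17.4% of all tested genes called higher, 26.8% called lower and 44.2% called in either direction. The median difference of the members was -0.13, and that of all genes was -0.03. By role, 8 of 13 ligands fell and 1 rose. Among the falls were Wnt6 and Wnt10a, which were admitted to the test only through the control group where they were bright. Of 10 Frizzled receptors, 3 rose and 3 fell. Fzd10 is counted there as a fall by the brighter of its 2 probes, which moved in opposite directions. Of 5 inhibitors, 2 rose and 2 fell, and of 5 intracellular components 1 rose and 0 fell.

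Under KCl, 12 members rose and 10 fell, with 35.7% of all genes called higher, 36.1% called lower and 71.8% called in either direction. The median difference was 0.01 for the members and 0.02 for all genes. The split between directions depended on scaling, at 7 higher and 15 lower with arrays set to their medians, 6 and 15 with arrays set to the spike-in probes, and 10 and 13 after quantile normalization. By role, 6 Frizzled receptors rose and 3 fell, with Fzd10 again counted as a fall by its brighter probe. Of the ligands, 2 rose and 5 fell (Wnt6 and Wnt10a again among them). Of the inhibitors, 3 rose and 1 fell, and 1 intracellular component rose and 1 fell. The comparisons of bicuculline and of KCl with control use the same 3 control arrays, so their values are set side by side below and were not counted together.

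**Figure D1:**
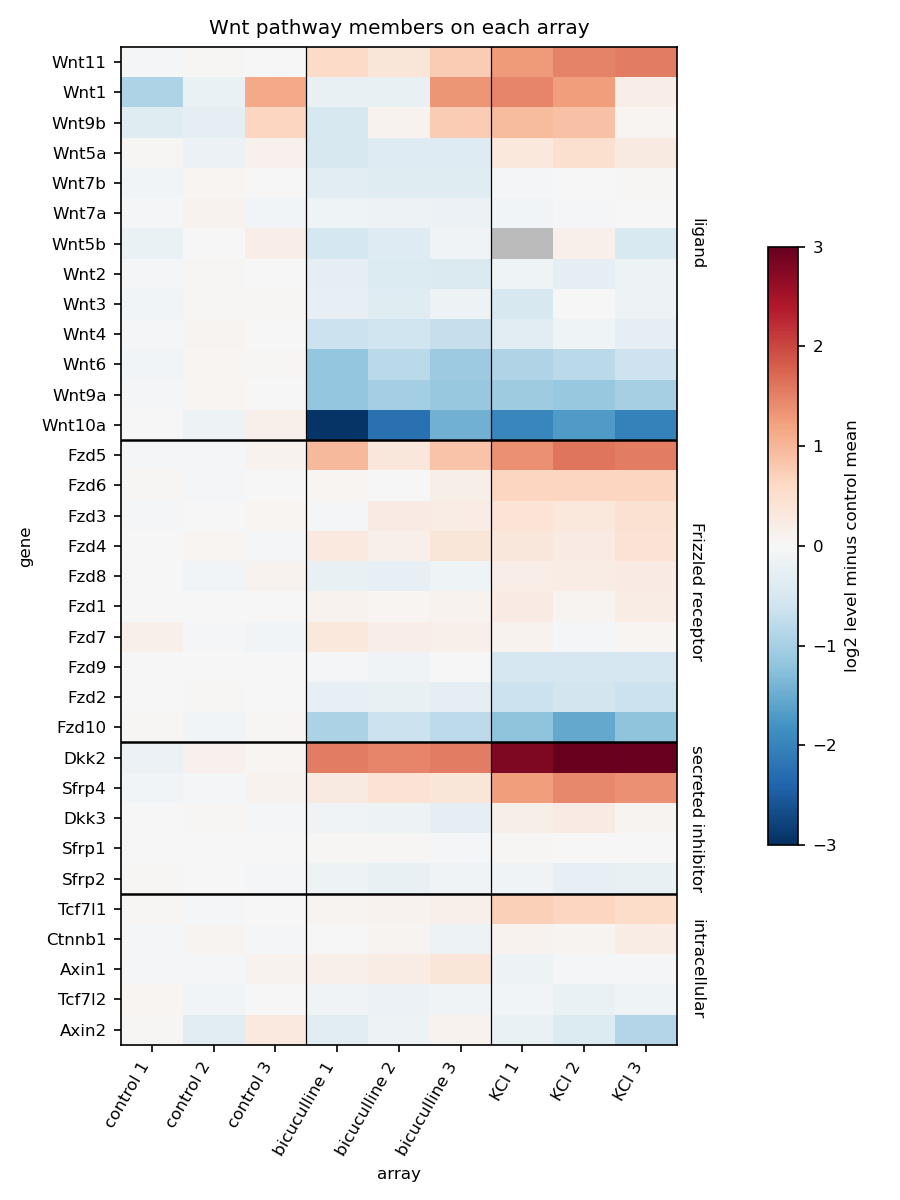
Level of each of the 33 tested members on each of the 9 arrays, as log2 level minus the mean of the 3 control arrays (colour, from -3 to 3), grouped by role and ordered by the KCl difference. Dkk2 shows the deepest red on the KCl arrays and Wnt10a the deepest blue on the treated arrays; the grey cell is Wnt5b on KCl 1, whose spot the scanning software marked as an outlier.

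Markers of other cell types were called as well, and their part in the results on the members was not tested. In bulk samples fewer cells of a type and less RNA per cell cannot be told apart. Of all tested genes, 35.7% were called higher and 36.1% lower under KCl, and 17.4% and 26.8% under bicuculline. A summed level weighs bright markers most. Of 9 astrocyte markers tested, 4 rose and 2 fell under KCl and 3 fell under bicuculline, and their summed level ran from 15101.5% to 16313% on control arrays, 15189% to 15435% on bicuculline arrays and 17125% to 18058% on KCl arrays. The 7 oligodendrocyte lineage markers (5 higher and 2 lower under KCl, 1 higher and 4 lower under bicuculline) summed to 3064% to 3186%, 2893% to 3059% and 3425% to 3521% in the same order. The 7 vascular and fibroblast markers (5 higher and 1 lower under KCl, 2 lower under bicuculline) summed to 1462% to 1484%, 1484% to 1526% and 1796% to 1839.7%. The 6 microglial markers (3 higher under KCl, 0 called under bicuculline) summed to 372% to 397%, 304% to 444% and 427% to 659%. Markers of cycling cells and progenitors, with 2 higher and 5 lower of 7 under KCl and 4 lower under bicuculline, summed to 1872% to 1938%, 1707% to 1784% and 2129% to 2242%. The 7 neuronal markers (3 higher and 1 lower under KCl, 3 lower under bicuculline) summed to 11028% to 11972%, 10521% to 11372% and 11349.5% to 11845%. The defining markers Mog of myelinating oligodendrocytes, Pecam1 and Cdh5 of endothelium, Ttr of choroid plexus and Lmx1a of the cortical hem were not well above background on any array. Choroid plexus was otherwise read by Folr1 alone (higher under KCl, at 40.8% to 48.5% on control and bicuculline arrays and 54.5% to 70.4% on KCl arrays). For the Cajal-Retzius and hem list, with 2 of 3 genes higher under KCl and 1 higher and 1 lower under bicuculline, the sums were 724% to 740.3%, 679.7% to 719% and 779.7% to 841%, and Lhx5 rose in both treatments (1.72 and 2.23).

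Members called with a difference of at least 0.5 in each treatment were considered for a view of their promoters: the inhibitor Dkk2, the ligand Wnt11 and the receptor Fzd5 were higher, and the ligands Wnt6, Wnt9a and Wnt10a were lower, as was the brighter of the 2 probes of the receptor Fzd10, whose other probe rose with KCl. The 250 bases before the RefSeq start site are shown for 4 of them, chosen to set 2 promoters of genes that rose beside 2 of genes that fell, in build GRCm38.p6 and 5′ to 3′ on the plus strand. Capitals mark matches, on either strand, to the cAMP response element core TGACG, the Tcf/Lef letters CTTTGAA or CTTTGAT, the Egr letters GCGTGGGCG or the TATA box letters TATAAA; the AP-1 letters TGAGTCA and TGACTCA and the whole element TGACGTCA, which holds the core, were searched too and had no match in these 4. For Wnt11 the upstream of its 2 listed start sites is shown. The promoters of Fzd5, which also rose, and of Fzd10 are not shown, and Wnt10a had no promoter entry.
Dkk2, chr3:132085042-132085291: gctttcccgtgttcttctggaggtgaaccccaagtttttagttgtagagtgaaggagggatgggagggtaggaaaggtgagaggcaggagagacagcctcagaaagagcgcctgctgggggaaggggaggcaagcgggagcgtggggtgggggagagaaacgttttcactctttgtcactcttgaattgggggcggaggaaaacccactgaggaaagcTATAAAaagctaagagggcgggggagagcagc
Wnt11, chr7:98834862-98835111: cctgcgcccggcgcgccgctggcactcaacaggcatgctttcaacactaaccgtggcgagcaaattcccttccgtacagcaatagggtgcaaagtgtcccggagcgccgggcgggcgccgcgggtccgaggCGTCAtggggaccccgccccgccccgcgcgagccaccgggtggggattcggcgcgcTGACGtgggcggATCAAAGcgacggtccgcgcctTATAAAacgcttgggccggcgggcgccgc
Wnt6, chr1:74771642-74771891: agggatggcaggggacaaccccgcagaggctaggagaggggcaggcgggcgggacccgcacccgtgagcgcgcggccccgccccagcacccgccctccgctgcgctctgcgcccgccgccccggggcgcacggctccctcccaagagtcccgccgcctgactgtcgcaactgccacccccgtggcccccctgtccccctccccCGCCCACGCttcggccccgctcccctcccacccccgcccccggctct
Wnt9a, chr11:59306680-59306929: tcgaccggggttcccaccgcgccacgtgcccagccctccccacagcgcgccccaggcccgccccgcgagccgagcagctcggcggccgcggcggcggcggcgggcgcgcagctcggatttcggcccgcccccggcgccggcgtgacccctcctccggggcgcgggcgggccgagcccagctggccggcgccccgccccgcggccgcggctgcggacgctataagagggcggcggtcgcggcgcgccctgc

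The Dkk2 stretch holds TATAAA, whose first base lies at -32 from the start site. In Wnt11, TATAAA begins at -29, the element core at -119 and -63, and a Tcf/Lef match at -51. Wnt6 has an Egr match beginning at -47, and Wnt9a has no match to any of these letters. The TATA box was added to the search after the sequences had been seen. The promoters of Fzd5 and Fzd10 had no match to any of these letters. The downstream Wnt11 start site had matches to the element core but no TATAAA. The Wnt9a stretch holds tataag, which differs from TATAAA in its last letter, at the same distance from the start site as TATAAA in Dkk2. The promoters shown therefore do not separate genes that rose from genes that fell. RefSeq promoter entries matched 30 of the 43 member genes, with 38 promoters of 300 bases (250 before and 50 after the start). TATAAA was in 7 of these 38 (18.4%) against 13.6% of 32851 mouse promoters of the same length, the element core in 6 (15.8% against 20.8%), the Tcf/Lef letters in 3 (7.89% against 8.65%), the AP-1 letters in 1 (2.63% against 5.20%), the Egr letters in 1 (2.63% against 0.612%) and the whole element in 0 (against 1.79%). A match is a stretch of letters and was not tested as a binding site.

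Among the ligands, Wnt9a, known for its part in joint formation, fell about equally in both treatments. Its levels were 92.6%, 99.0% and 94.3% in control, 42.5%, 46.7% and 43.4% with bicuculline, and 45.5%, 43.0% and 48.0% with KCl. Every treated array lay below every control array, and the treated groups overlapped. The difference from control was -1.11 ± 0.05 with bicuculline (2.16-fold lower, adjusted p = 2.7e-06) and -1.07 ± 0.05 with KCl (2.10-fold lower, adjusted p = 8.8e-07). Both calls held under every alternative run. The difference between the treatments was 0.04 ± 0.05, with a 95% interval from -0.08 to 0.17. A second Wnt9a probe, well above background on 4 arrays and not tested, was at 1.42%, 1.05% and 1.63% in control. That probe was at 0.642%, 0.701% and 1.32% with bicuculline and 1.56%, 3.52% and 2.21% with KCl.

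Wnt10a, a ligand of tooth and hair development, had levels of 4.79%, 4.30% and 5.30% in control, 0.624%, 1.02% and 1.75% with bicuculline, and 1.22%, 1.46% and 1.18% with KCl. The control arrays lay above all treated arrays, and it was well above background on 3 control arrays, 1 bicuculline array and 0 KCl arrays, so it entered the test through the control group alone, where it was bright, and its p-values are conditioned on that choice. With bicuculline the fitted difference was -2.21 ± 0.32 (adjusted p = 0.00097). With KCl it was at least 2.79-fold lower, the bound being set by the lowest signal still marked above background, with an adjusted p = 0.00096 for the fitted difference of -1.90 ± 0.32. Wnt6, which acts in epithelia, is the neighbour of Wnt10a on the chromosome in the RefSeq gene order. Its levels were 3.71%, 4.09% and 4.07% in control, 1.76%, 2.24% and 1.87% with bicuculline, and 2.10%, 2.25% and 2.56% with KCl. Again no treated array reached the control range, although 1 bicuculline array and 1 KCl array were not well above background. Wnt6 too entered the test only through the control group where it was bright, with the same limit on its p-values. Wnt6 fell by 1.02 ± 0.10 with bicuculline (2.03-fold, adjusted p = 0.00013) and fell by 0.78 ± 0.10 with KCl (1.72-fold, adjusted p = 0.00023). Both genes are dim: after normexp background correction of the raw signal, in place of the software's processed signal, neither passed in either treatment, and their KCl differences turned to 0.42 for Wnt10a and 0.84 for Wnt6. The same correction left 2 of the 20 bicuculline calls on members (Wnt9a and Wnt4) and 9 of the 22 KCl calls (Wnt9a, Wnt11, Fzd2, Fzd4, Fzd6, Fzd9, Dkk2, Sfrp4 and Tcf7l1).

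Wnt4, a ligand of kidney and gonad development, fell more with bicuculline than with KCl. Levels were 55.4%, 61.1% and 57.1% in control, 37.0%, 38.0% and 35.6% with bicuculline, and 45.5%, 52.8% and 48.0% with KCl, and the 3 groups did not overlap. Against control the difference was -0.65 ± 0.06 with bicuculline (1.57-fold lower, adjusted p = 0.0001) and -0.25 ± 0.06 with KCl (1.19-fold lower, adjusted p = 0.0076). The KCl arrays were 0.40 ± 0.06 above the bicuculline arrays (adjusted p = 0.00077). The fall with KCl was not called with slide as a block or with normexp correction (-0.07). The difference between the treatments was not called with spike-in scaling.

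Wnt5a, the ligand best known for signalling outside the β-catenin branch, went in opposite directions. It was at 3.18%, 2.75% and 3.40% in control, 2.20%, 2.37% and 2.36% with bicuculline, and 3.86%, 4.29% and 3.72% with KCl. The groups did not overlap, with bicuculline lowest and KCl highest. The difference was -0.42 ± 0.09 with bicuculline (adjusted p = 0.0048), 0.35 ± 0.09 with KCl (adjusted p = 0.0064) and 0.78 ± 0.09 between KCl and bicuculline (1.71-fold, adjusted p = 0.00012). The rise with KCl was not called after quantile normalization (0.03), with spike-in scaling (0.12), with normexp correction (1.13) or with a trended prior. It turned to -0.05 with normexp and quantile normalization. The fall with bicuculline was not called with normexp correction (-0.25) or with a trended prior.

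Wnt11, which guides cell movements in the embryo, was the ligand that rose in both treatments. Levels were 3.86%, 4.06% and 4.03% in control, 5.88%, 5.14% and 6.76% with bicuculline, and 9.59%, 11.1% and 11.5% with KCl. The groups formed 3 steps without overlap. Wnt11 rose by 0.56 ± 0.10 with bicuculline (1.48-fold, adjusted p = 0.003) and by 1.42 ± 0.10 with KCl (2.69-fold, adjusted p = 6.8e-06). KCl exceeded bicuculline by 0.86 ± 0.10 (adjusted p = 0.00019). The rise with bicuculline was not called with normexp correction (0.32). Over the alternatives other than left-out arrays, the adjusted p between the treatments reached 0.082.

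Smaller falls were called among the ligands of the forebrain. Wnt7b, which promotes dendrite growth, was at 279%, 308% and 295% in control, 232%, 229% and 227% with bicuculline, and 280.1%, 289% and 303% with KCl. The bicuculline arrays stood below the other 6, with a difference from control of -0.36 ± 0.04 (adjusted p = 0.00041) against -0.02 ± 0.04 for KCl (adjusted p = 0.76), and KCl was 0.34 ± 0.04 above bicuculline (adjusted p = 0.0003). The fall of Wnt7b with bicuculline was not called with normexp correction (-0.34). The difference between the treatments was not called with spike-in scaling (0.11) or normexp correction (0.18). KCl was called lower than control with median (-0.18) and spike-in scaling (-0.24). Wnt2 fell by 0.37 ± 0.05 with bicuculline (adjusted p = 0.00084) and by 0.17 ± 0.05 with KCl (adjusted p = 0.019). The KCl call was lost without control 2 or KCl 2, with slide as a block and with normexp correction, where it turned to 0.22. The bicuculline call of Wnt2 was also lost with normexp correction (-0.34). The Wnt7a call with bicuculline (-0.15 ± 0.05, adjusted p = 0.048) was lost when any of 8 arrays was left out (all except control 3), with slide as a block and with the replicate number as a block (adjusted p = 0.0766). Of the remaining tested ligands, Wnt3 gave -0.26 ± 0.12 with bicuculline and -0.22 ± 0.12 with KCl, and Wnt5b, with KCl 1 left out as an outlier spot, gave -0.34 ± 0.19 and -0.15 ± 0.21; none of these 4 passed. With the replicate number as a block in the 6 control and bicuculline arrays, both were called lower with bicuculline (adjusted p = 0.0333 for Wnt3 and 0.00408 for Wnt5b). Wnt3 was called lower with KCl after quantile normalization (-0.43), normexp with quantile normalization (-0.29), median scaling (-0.38) and spike-in scaling (-0.45), and by the mean of its probes (-0.68). Over the alternatives other than left-out arrays, the KCl difference of Wnt3 ranged from -0.68 to 0.76.

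**Figure D2:**
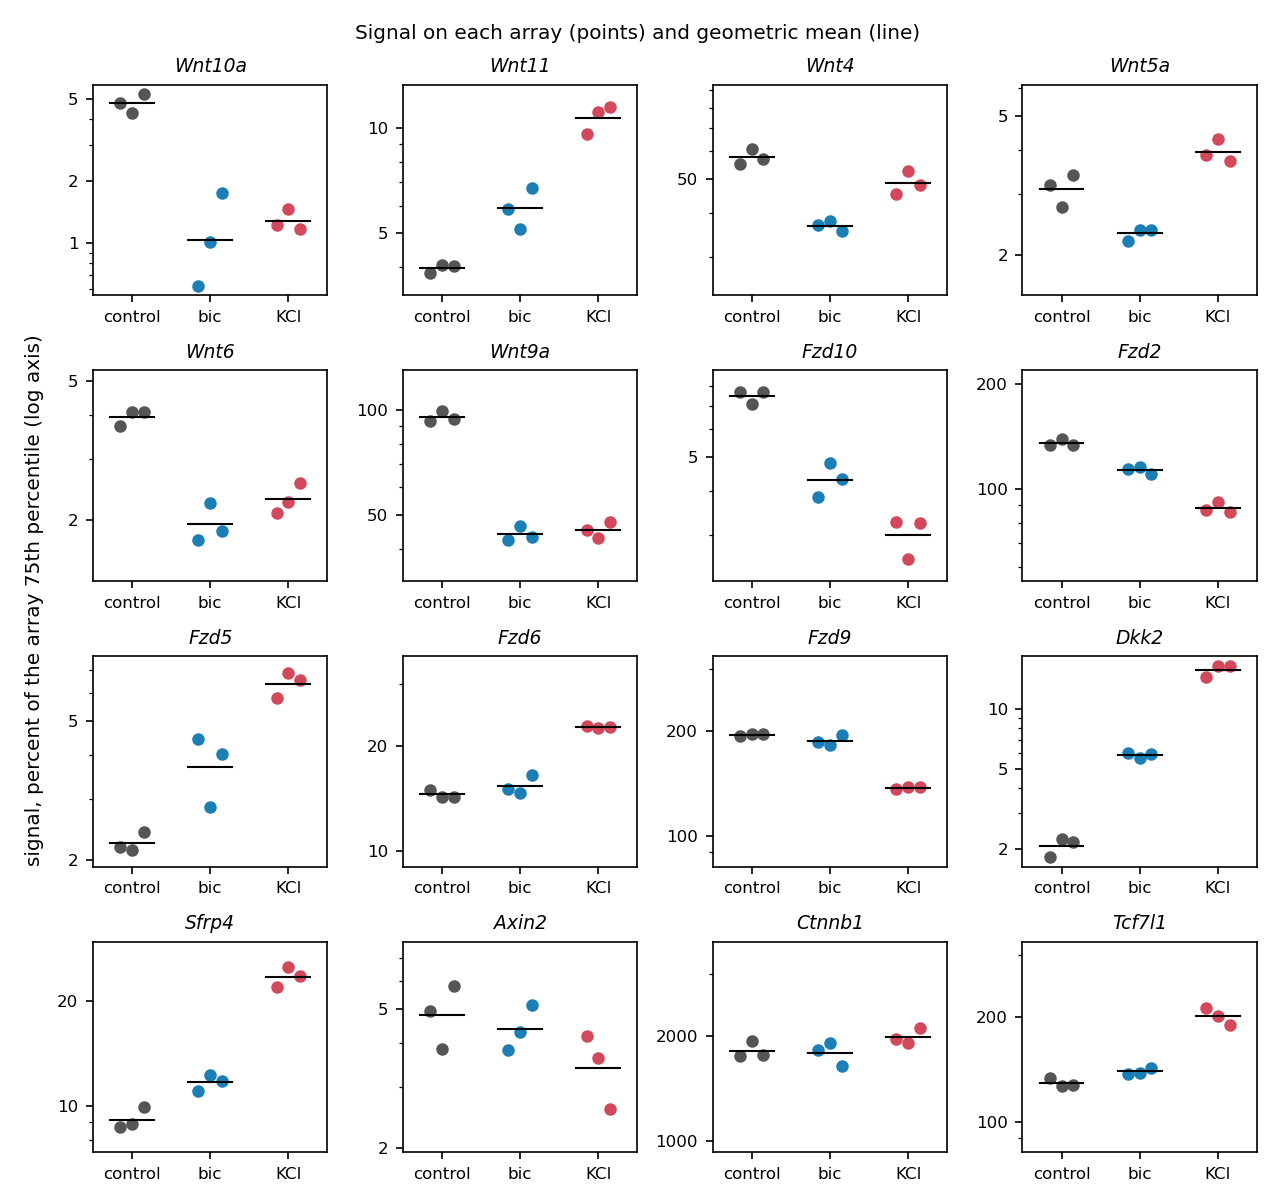
Level of 16 members on each array (points, 3 per group, log axis in percent of the array's 75th percentile) with the geometric mean of the group (line). Dkk2 climbs from near 2% to near 16%, Wnt9a drops below 50% in both treated groups, and in Ctnnb1 both treated groups overlap control.

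Wnt1 and Wnt9b passed the filter through the KCl group alone and followed the slides. Wnt1, a midbrain organiser signal, was at 0.688%, 1.14% and 2.85% in control, 1.12%, 1.12% and 3.27% with bicuculline, and 3.62%, 3.12% and 1.49% with KCl. Wnt9b, an inducer of kidney tubules, was at 1.31%, 1.39% and 2.66%, then 1.21%, 1.82% and 2.88%, then 3.25%, 3.103% and 1.77%. In each, the 4 arrays of the slide with KCl 1 and 2 lay above the 4 arrays of the slide with control 1 and 2, whatever their treatment. The differences with KCl, 0.97 ± 0.64 for Wnt1 and 0.63 ± 0.40 for Wnt9b, did not pass (adjusted p = 0.2 and 0.19), and within the slide that holds all groups they were 0.24 and 0.26. The probe of the inhibitor Sfrp5, which was not tested, showed the same order, at 3.19% to 4.37% on that slide against 1.06% to 1.78% on the other. These 3 were chosen after their values had been seen; with a probe of Tcf7l1 they are the 4 of 58 member probes with that order, and 0 of 58 had the reverse.

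**Figure D3:**
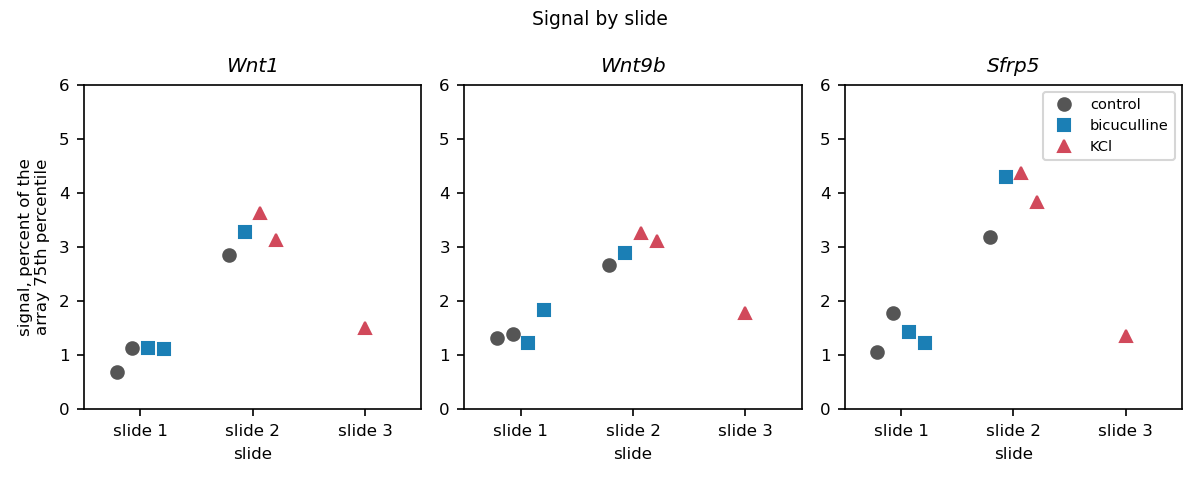
Level of Wnt1, Wnt9b and Sfrp5 on each array by slide, in percent of the array's 75th percentile, with colour and shape giving the group. In all 3 panels all arrays of slide 2 stand above those of slide 1, which holds control and bicuculline arrays only, and KCl 3, alone on slide 3, lies below slide 2.

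The largest difference from control among the tested members was that of Dkk2 with KCl; Dkk2 is a secreted protein that binds the Lrp5 and Lrp6 coreceptors. It was at 1.82%, 2.24% and 2.16% in control, 6.00%, 5.66% and 5.97% with bicuculline, and 14.4%, 16.4% and 16.2% with KCl. The 3 groups were far apart relative to their spread. Since 1 control array was not well above background, Dkk2 entered the test only through the treated groups, where it was bright. Its p-values against control are conditioned on that choice. Dkk2 rose by 1.51 ± 0.09 with bicuculline (2.85-fold, adjusted p = 5.9e-06) and by 2.92 ± 0.09 with KCl (7.58-fold, adjusted p = 6.9e-08), and KCl exceeded bicuculline by 1.41 ± 0.09 (2.66-fold, adjusted p = 5.2e-06). Over the alternatives other than left-out arrays, the rise ranged from 0.66 to 1.51 with bicuculline, where normexp correction ended the call, and from 1.54 to 2.92 with KCl, where every call held.

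Sfrp4, a secreted Frizzled-related protein that binds Wnts, was at 8.70%, 8.85% and 9.91% in control, 11.1%, 12.3% and 11.8% with bicuculline, and 21.9%, 24.9% and 23.5% with KCl. It rose in steps without overlap, by 0.36 ± 0.07 with bicuculline (1.28-fold, adjusted p = 0.0039) and by 1.36 ± 0.07 with KCl (2.56-fold, adjusted p = 9.3e-07). The rise with bicuculline was not called with normexp correction (0.25). The relatives of Sfrp4 did not follow. Sfrp1, which is made by cortical progenitors, differed by 0.00 ± 0.03 with bicuculline, with a 95% interval from -0.08 to 0.08, and by 0.01 ± 0.03 with KCl (-0.07 to 0.09). Sfrp2 fell by 0.16 ± 0.05 with bicuculline (adjusted p = 0.036) and by 0.20 ± 0.05 with KCl (adjusted p = 0.0083). The former call was lost when any of 6 arrays was left out (all except bicuculline 3, KCl 1 and KCl 2), and both were lost with slide as a block or normexp correction. Dkk3, a divergent family member, fell by 0.18 ± 0.05 with bicuculline and rose by 0.16 ± 0.05 with KCl (adjusted p = 0.026 for each). Both Dkk3 calls depended on single arrays (control 1, control 2, bicuculline 2 and bicuculline 3 for the fall, and control 1, control 3, KCl 1 and KCl 2 for the rise). The rise came to -0.00079 with median scaling and -0.07 with spike-in scaling. Neither Dkk3 call held with normexp correction (-0.19 and 0.08).

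Of the Frizzled receptors, Fzd5, which acts in eye and vessel development, rose most. It was at 2.18%, 2.14% and 2.40% in control, 4.43%, 2.84% and 4.03% with bicuculline, and 5.82%, 6.85% and 6.54% with KCl. All treated arrays exceeded the control arrays and all KCl arrays exceeded the bicuculline arrays, among which bicuculline 2 was lowest. Fzd5 rose by 0.72 ± 0.16 with bicuculline (1.65-fold, adjusted p = 0.0065) and by 1.51 ± 0.16 with KCl (2.85-fold, adjusted p = 5.1e-05). With normexp correction neither was called, at 0.25 and 1.61. A second Fzd5 probe, well above background on 5 arrays and not tested, was at 0.841%, 2.04% and 1.96% in control. That probe was at 1.40%, 1.32% and 1.82% with bicuculline and 1.95%, 3.04% and 2.86% with KCl. Fzd6, a planar polarity receptor, was at 15.0%, 14.3% and 14.3% in control, 15.1%, 14.7% and 16.4% with bicuculline, and 22.8%, 22.5% and 22.6% with KCl. Its KCl arrays stood apart, with a rise of 0.64 ± 0.05 (1.56-fold, adjusted p = 6e-06), while the bicuculline arrays overlapped control (0.08 ± 0.05, adjusted p = 0.18). The difference between KCl and bicuculline was itself 0.56 ± 0.05 (adjusted p = 2.4e-05).

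Fzd2 and Fzd9 went down with KCl. Fzd2 was at 133%, 139% and 133% in control, 114%, 115% and 111% with bicuculline, and 86.9%, 91.9% and 85.8% with KCl. The fall came in 2 steps without overlap, by 0.25 ± 0.04 with bicuculline (1.19-fold, adjusted p = 0.001) and by 0.61 ± 0.04 with KCl (1.53-fold, adjusted p = 2.5e-06). The bicuculline call was lost with spike-in scaling and with normexp correction (-0.24), and the KCl call held under every alternative run. Fzd9, which maps to the region deleted in Williams syndrome, was at 193%, 196% and 197% in control, 186%, 183% and 194% with bicuculline, and 137%, 139% and 138% with KCl. KCl arrays were clearly below the others, with a difference of -0.50 ± 0.03 from control (1.41-fold, adjusted p = 2.8e-06) and of -0.44 ± 0.03 from bicuculline (adjusted p = 1.1e-05), whereas the bicuculline difference of -0.06 ± 0.03 did not pass.

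Fzd10 was read by 2 probes of the same RefSeq transcript that moved in opposite directions. Its brighter probe was at 7.66%, 7.08% and 7.65% in control, 3.85%, 4.81% and 4.32% with bicuculline, and 3.25%, 2.55% and 3.23% with KCl, a fall of 0.79 ± 0.11 (adjusted p = 0.00078) and of 1.32 ± 0.11 (adjusted p = 1.6e-05). Its other probe was at 1.62%, 2.38% and 2.47%, then 2.95%, 2.65% and 2.69%, then 3.17%, 4.12% and 3.26%, which is a rise of 0.72 ± 0.17 with KCl (adjusted p = 0.0054 among all probes) and 0.38 ± 0.17 with bicuculline (adjusted p = 0.11). That other probe was well above background on 2 control arrays and all treated arrays. It entered the test only through the treated groups where it was bright, and its p-values are conditioned on this choice. With normexp correction the brighter probe was not called and gave 0.27 for KCl. No direction is therefore given for the gene.

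The other 5 Frizzled receptors showed smaller differences. Fzd4, the receptor of the retinal vessel ligand Norrin, rose by 0.27 ± 0.07 with bicuculline (adjusted p = 0.011) and 0.34 ± 0.07 with KCl (adjusted p = 0.002). Neither was called with median or spike-in scaling, and the bicuculline call was also lost with normexp correction (0.31). Fzd3, needed for axon tracts in the forebrain, rose by 0.39 ± 0.08 with KCl by the brightest of its probes (adjusted p = 0.0037), while the others gave 0.78 ± 0.07 and 1.101 ± 0.06. The brightest probe was not called with median or spike-in scaling, slide as a block or normexp correction. Fzd1 rose by 0.18 ± 0.04 with KCl (adjusted p = 0.0065) but not with median (0.02) or spike-in scaling (-0.05), and Fzd8 fell by 0.20 ± 0.05 with bicuculline and rose by 0.22 ± 0.05 with KCl (adjusted p = 0.019 and 0.0065). The KCl value of Fzd8 turned to -0.07 after quantile normalization, -0.03 with normexp and quantile normalization and -0.0048 with spike-in scaling. Its bicuculline call was lost without control 3, bicuculline 1 or bicuculline 2. Normexp correction also ended both Fzd8 calls against control, the KCl call of Fzd1 and the bicuculline call of Fzd7. Fzd7 rose by 0.23 ± 0.07 with bicuculline (adjusted p = 0.034), a call lost without control 2, control 3, bicuculline 1, bicuculline 2 or KCl 3 and with quantile, median or spike-in scaling, and its KCl difference was 0.04 ± 0.07.

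**Figure D4:**
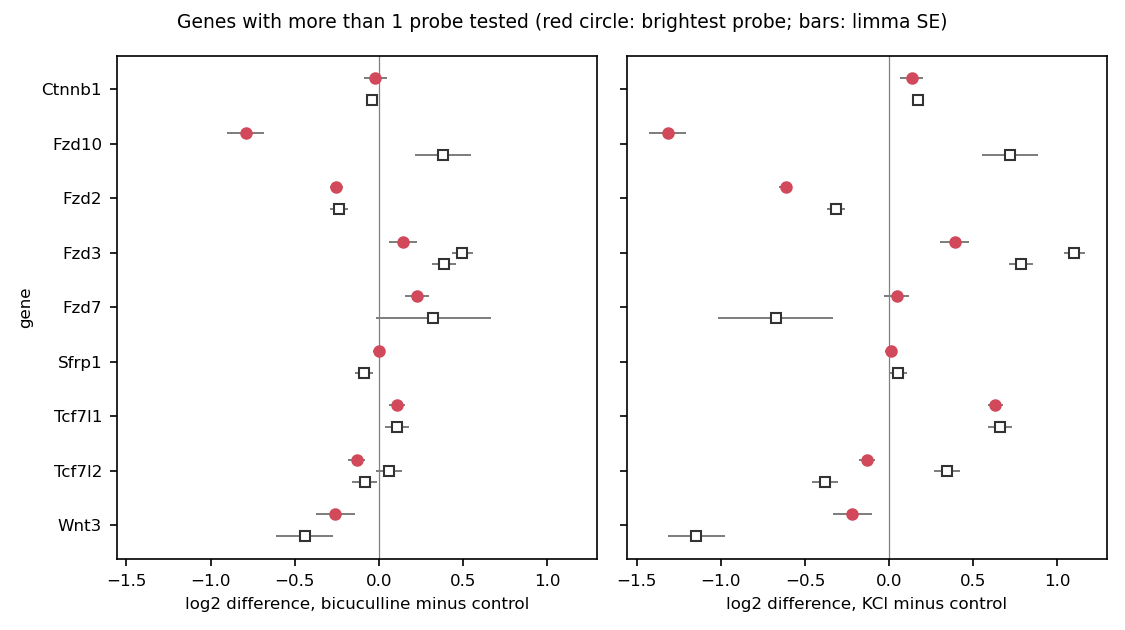
Differences from control in log2 for the 9 genes with more than 1 probe tested, bicuculline at left and KCl at right, with the brightest probe as a filled red circle, the others as open squares and limma standard errors as bars. Probes of Fzd3 and Tcf7l1 lie on the same side of 0, while those of Fzd10 and Tcf7l2 and, for KCl, Fzd7 lie on both sides.

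Inside the cell, Tcf7l1, a Tcf factor that mostly represses, was the component with a clear change. It was at 134%, 127% and 128% in control, 137%, 139% and 143% with bicuculline, and 211%, 202% and 189.8% with KCl. The KCl arrays lay well above the others, by 0.63 ± 0.04 from control (1.55-fold, adjusted p = 5.9e-06) and 0.52 ± 0.04 from bicuculline (adjusted p = 3e-05), while bicuculline differed from control by 0.11 ± 0.04 (adjusted p = 0.088). Its other probe gave 0.66 ± 0.07 for KCl, and the KCl call held under every alternative run. Tcf7l2, a related factor, fell by 0.13 ± 0.05 with KCl (adjusted p = 0.037) by the brightest of its probes, while the others gave 0.34 ± 0.08 and -0.38 ± 0.08. That call was lost when any of 6 arrays was left out, all except control 2, bicuculline 2 and KCl 1. With bicuculline its brightest probe gave -0.13 ± 0.05 (adjusted p = 0.055), which passed with the replicate number as a block (adjusted p = 0.0139).

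Ctnnb1, which encodes β-catenin itself, was at 1754%, 1930.2% and 1763% in control, 1824%, 1906% and 1645% with bicuculline, and 1957%, 1912% and 2102% with KCl. Both treated groups overlapped control, the KCl arrays lay above the bicuculline arrays, and the KCl difference from control was 0.13 ± 0.07 (adjusted p = 0.11, 95% interval from -0.02 to 0.29). Its other probe gave 0.17 ± 0.03 for KCl (adjusted p = 0.0024) and 0.21 ± 0.03 for KCl against bicuculline (adjusted p = 0.00099), both among all probes. On that probe the KCl arrays, at 1445% to 1542%, did not overlap the control arrays, at 1326% to 1332%. Over the alternatives other than left-out arrays, the KCl difference of Ctnnb1 ranged from -0.12 to 0.17 (adjusted p from 0.010 to 0.80). Axin2, a scaffold of the destruction complex and a widely used readout of β-catenin activity, was at 4.93%, 3.84% and 5.83% in control, 3.81%, 4.31% and 5.14% with bicuculline, and 4.18%, 3.62% and 2.60% with KCl. Its replicates were scattered and the groups overlapped. The differences were -0.13 ± 0.21 with bicuculline (adjusted p = 0.67) and -0.50 ± 0.21 with KCl (adjusted p = 0.067). The latter interval ran from -0.99 to -0.00, and KCl was called lower after quantile normalization (-0.83, adjusted p = 0.0045), with median scaling (-0.66), spike-in scaling (-0.73), slide as a block (-0.56) and normexp with quantile normalization (-0.34). With normexp and the 75th percentile it turned to 0.76 and was not called, and the adjusted p ranged from 0.003 to 0.39 over the alternatives. Axin1, the constitutive scaffold, rose by 0.25 ± 0.07 with bicuculline (adjusted p = 0.023), a call lost without control 1, control 2 or bicuculline 3, and differed by -0.09 ± 0.07 with KCl, where it was called lower after quantile normalization (-0.20), with median (-0.25) and spike-in scaling (-0.32) and with slide as a block (-0.21). Over the alternatives other than left-out arrays, the KCl difference of Axin1 ranged from -0.32 to 0.47. The bicuculline call of Axin1 was also lost with normexp correction (0.24).

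KCl was also set against bicuculline directly, to ask where the treatments differ. Of the 33 members, 13 were higher with KCl and 4 lower, against 35.8% and 28.9% of all genes (64.7% in either direction), with medians of 0.20 for members and 0.07 for all genes. Spike-in scaling gave 7 higher and 6 lower, and quantile normalization 10 and 6. Besides Dkk2, Sfrp4, Wnt11, Fzd5, Wnt5a, Fzd6, Tcf7l1, Wnt4 and Wnt7b, the higher genes were Fzd8 (0.42 ± 0.05), Dkk3 (0.35 ± 0.05), Fzd3 (0.25 ± 0.08) and Wnt2 (0.20 ± 0.05, turned to -0.03 with spike-in scaling). The lower genes were Fzd10 by its brighter probe (-0.52 ± 0.11), Fzd9 (-0.44 ± 0.03), Fzd2 by its brighter probe (-0.36 ± 0.04) and Axin1 (-0.33 ± 0.07, turned to 0.23 with normexp correction). The Fzd3 call was lost without control 2, bicuculline 1, KCl 1 or KCl 3. Those of Fzd8 and Dkk3 were lost with spike-in scaling (0.19 and 0.12) and normexp correction, and that of Fzd8 also after quantile normalization (0.18). Those of Fzd3 and Wnt2 were lost with quantile, median and spike-in scaling, slide as a block and normexp correction. Of the ligands, 5 of 13 were higher and 0 lower, and Wnt6, Wnt9a and Wnt10a, the ligands that fell furthest from control, did not pass (0.24 ± 0.10, 0.04 ± 0.05 and 0.31 ± 0.32).

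**Figure D5:**
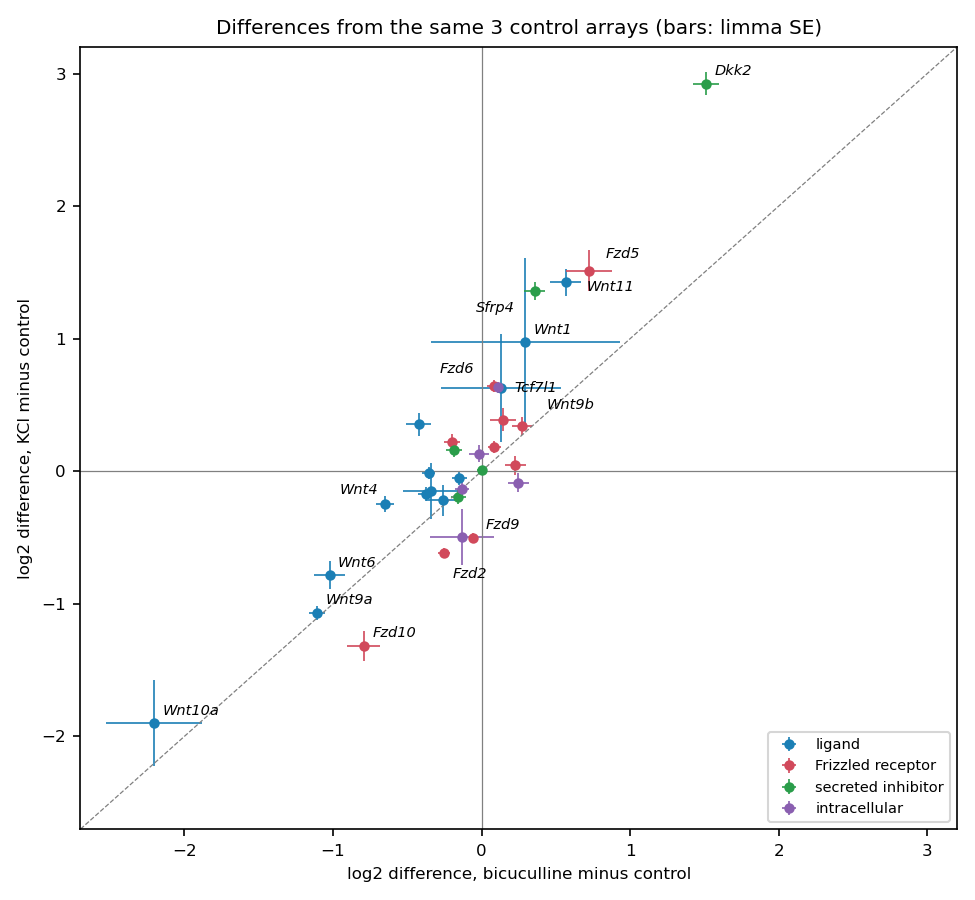
Difference from control in log2 for each of the 33 tested members, bicuculline on the horizontal axis and KCl on the vertical axis, coloured by role, with limma standard errors as bars and a dashed line where both are equal. Both axes use the same 3 control arrays; Dkk2 lies far above the dashed line at 1.51 and 2.92, and Wnt9a lies on it at -1.11 and -1.07.

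The 10 members that were not tested had no group in which all arrays were well above background. Dkk1, Dkk4, Wnt16, Wnt2b, Wnt3a and Wnt8a, with 7 probes among them, were not well above background on any array. Wnt10b was above it on 1 control, 2 bicuculline and 2 KCl arrays, at levels from 1.31% to 3.28%. Wnt8b was above it on 2 control arrays, 1 bicuculline array and 1 KCl array, from 0.309% to 3.06%. Sfrp5 was above it on 2 control arrays, 1 bicuculline array and 2 KCl arrays. Lef1, the partner of β-catenin on DNA, was above it on 0 control arrays, 1 bicuculline array and 2 KCl arrays, at 0.492% to 0.680%, 0.765% to 1.11% and 0.953% to 3.61%. Of the 33 tested genes, 28 were well above background on all arrays of every group, Dkk2 on all arrays of 2 groups, and Wnt1, Wnt6, Wnt9b and Wnt10a on all arrays of 1 group. A gene admitted only through its bright group or groups, Dkk2 included, was selected in part for a difference. The counts above therefore describe the members that passed and are no evidence about all members.

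Of 13 members with several probes, Wnt3, Fzd7, Fzd3, Fzd2 and Sfrp1 also had probes that differed in their calls. With bicuculline the brightest Fzd3 probe gave 0.14 and did not pass, while the others rose by 0.50 ± 0.06 and 0.39 ± 0.07 (adjusted p = 0.00051 and 0.0032 among all probes). The dimmer Wnt3 probe was at 3.02%, 3.23% and 2.75% in control and not well above background on any KCl array, which puts it at least 1.75-fold lower with KCl (adjusted p = 0.00043 for the fitted difference among all probes), where the brighter probe did not pass. The dimmer probe entered the test only through the control and bicuculline groups where it was bright, so that p-value is conditioned on this choice. A second Fzd7 probe was above background on 2 control, 3 bicuculline and 0 KCl arrays. It entered the test only through the bicuculline group where it was bright. It was at least 1.13-fold lower with KCl than with bicuculline (adjusted p = 0.034), and that p-value is conditioned on this choice. Fzd2 had another probe with falls of 0.24 ± 0.05 with bicuculline and 0.32 ± 0.05 with KCl. Between KCl and bicuculline that probe gave -0.08 ± 0.05 and did not pass (adjusted p = 0.24 among all probes). The dimmer Sfrp1 probe was 0.14 ± 0.05 higher with KCl than with bicuculline (adjusted p = 0.043 among all probes), where the brighter probe did not pass.

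Beyond the members, a list of 70 other Wnt pathway genes (receptors, secretion factors, agonists, cytoplasmic and nuclear components and polarity genes) had 62 tested. With bicuculline 12 rose and 13 fell, and with KCl 30 rose and 11 fell, with medians of -0.03 and 0.12 beside -0.03 and 0.02 for all genes. Of all tested genes, 17.4% were called higher and 26.8% lower with bicuculline, and 35.7% and 36.1% with KCl. In either direction, 40.3% and 66.1% of the list were called, against 44.2% and 71.8% of all genes. Scaling to the spike-in probes gave 7 higher and 4 lower with bicuculline and 15 and 18 with KCl, and median scaling gave 20 and 19 with KCl. KCl against bicuculline gave 31 higher and 6 lower with a median of 0.16, or 22 and 10 after quantile normalization, 14 and 8 with median scaling and 7 and 11 with spike-in scaling. In that comparison 59.7% of the list were called in either direction, against 64.7% of all genes (35.8% higher and 28.9% lower).

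The leading rises included secreted agonists, the Wnt carrier and inhibitors at the membrane. Rspo3, a secreted R-spondin that keeps Frizzled receptors on the surface, went from 6.42%, 8.07% and 6.98% in control to 18.9%, 20.5% and 19.7% with bicuculline and 21.3%, 20.4% and 22.6% with KCl. It rose by 1.47 ± 0.08 and 1.59 ± 0.08 (adjusted p = 6e-06 and 1.1e-06), and the treated groups overlapped; the bicuculline call was lost with normexp correction. Rspo2, its relative, rose by 0.71 ± 0.04 and 0.78 ± 0.04 (adjusted p = 9.9e-06 and 1.6e-06). Wls, the carrier that brings Wnts to the cell surface for secretion, rose by 0.75 ± 0.06 with bicuculline (adjusted p = 3.7e-05) and by 0.99 ± 0.06 with KCl (adjusted p = 2.3e-06). By the brightest probe of each gene, the largest rise with KCl was in Rnf43, at 2.02 ± 0.07 (adjusted p = 1.6e-07). Rnf43 is the ligase that removes Frizzled receptors and is countered by R-spondins, and its difference with bicuculline was 0.41 ± 0.07. Another probe, for Tnks of the same list, gave 2.07 with KCl, where the brightest Tnks probe gave 0.10. Apcdd1, a membrane inhibitor of Wnts, was well above background on 0 control arrays, 1 bicuculline array and 3 KCl arrays, so it entered the test only through the KCl group where it was bright, and was at least 1.80-fold higher with KCl (adjusted p = 0.0047), a call lost with slide as a block or normexp correction.

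The leading fall in both treatments was in Dact2, a Dishevelled-binding protein. It went from 511%, 537% and 528% in control to 137%, 151% and 148% with bicuculline and 165%, 171% and 156% with KCl, by -1.86 ± 0.05 and -1.68 ± 0.05 (adjusted p = 1.6e-07 and 7.6e-08). Its other probe gave -1.78 and -1.40. Its relative Dact1 fell by 0.39 ± 0.06 with bicuculline (adjusted p = 0.0014) and Celsr3, a polarity cadherin, by 0.37 ± 0.07 (adjusted p = 0.005); neither was called with spike-in scaling or normexp correction. With KCl the next falls were in Pygo1, a β-catenin cofactor (-0.49 ± 0.17, adjusted p = 0.031), a call lost without any control array, KCl 1 or KCl 2, and in Apc, a destruction complex scaffold, by its brightest probe (-0.39 ± 0.03, adjusted p = 1.9e-05). The other 4 Apc probes ranged from -0.38 to 0.57, and the mean over its probes turned to 0.10, so no direction is given for Apc.

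The genes whose levels over the 9 arrays were most like that of Dkk2 were Mrtfb, Mcam and Txnl1, with Pearson's r of 0.998 each. Mrtfb differed from control by 1.46 with bicuculline and 2.72 with KCl, Mcam by 1.04 and 2.08, and Txnl1 by 0.40 and 0.82. For Wnt10a the nearest genes were Dctd (r = 0.983; -0.65 and -0.56), Tox3 (0.977; -0.26 and -0.25) and Lgi3 (0.973; -0.51 and -0.37). The 9 arrays share their 3 groups and slides, so these are descriptions, without a p.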

How the data were processed

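RNA of the 9 samples was labelled with cyanine 3 and hybridised to Agilent whole mouse genome arrays, per the labels' protocols. The authors deposited processed signal intensity from the Agilent software Feature Extraction (per the file headers its version was 10.7.3.1, and 10.5.1.1 per the submitters' processing notes), with background subtracted within each array and no scaling between arrays. The deposited series values equalled this intensity on all 45018 features of every array, so the scale of that table is the same.

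Intensities were set to log2, and each array's 75th percentile over non-control spots was subtracted. Outlier spots were left out and spots of a probe averaged. Probes were named through RefSeq identifiers (26888 of 41174 matched, assembly GRCm38.p6). A probe was kept if all arrays of 1 group or more marked it well above background and if it was measured on at least 2 arrays per group, and the brightest kept probe stood for its gene. limma 3.58.1 in R 4.3.3 fitted 14063 genes with group as the only term (6 residual degrees of freedom, prior 1.76), with Benjamini-Hochberg adjustment within each comparison; every adjusted p is two-sided and from limma, and n is 3 arrays per group. Where all arrays of a group were below background, the fold is a bound against, per array, the higher of the probe's signal and the lowest signal marked above background. Probe differences come from the same fit over 20992 probes.

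Same-numbered control and bicuculline arrays deviated together from their group means (r = 0.40, 0.26 and 0.74) and also shared slides. Pairing by number and a shared slide cannot be told apart there. Same-numbered KCl arrays lay on other slides (r from -0.57 to -0.09), so these values do not settle whether they were paired. The replicate number was used as a block in alternative runs only. With the block, the call on Wnt7a was lost and, in the 6 control and bicuculline arrays, Wnt3, Wnt5b and Tcf7l2 were called lower. Values in every array are given for members called with a difference of at least 0.5, and for Ctnnb1 and Axin2; of other pathway genes, the 3 largest rises and falls in each treatment are named. Members, lists and tests were chosen with earlier results of these data known. The number of arrays limits the precision. Scaling, background correction, filter, probe choice, slide, replicate block, prior and left-out arrays were varied.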

Additional observations from a re-analysis of the deposited data

Results flagged for a closer look

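The Lef1 probe, which was too dim to be tested, was well above background on 2 KCl arrays and on 0 control arrays, which drew attention to it as signal outside the tested genes. It was also above background on 1 bicuculline array. The control levels were 0.492%, 0.620% and 0.680% of the 75th percentile, those with bicuculline 0.765%, 0.986% and 1.11%, and those with KCl 0.953%, 3.61% and 2.27%. The difference was not tested.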

How the results depend on the processing

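The widest changes came from normexp background correction with the 75th percentile. It gave 485 genes higher and 333 lower with bicuculline, 1831 and 2322 with KCl, and 1076 and 1352 for KCl against bicuculline. For members these counts were 0 and 2, 6 and 3, and 5 and 2, and for the other Wnt pathway genes 2 and 1, 12 and 5, and 6 and 2. Of the called differences, under it that of KCl from control turned for Fzd10 (0.27), Sfrp2 (0.027), Wnt10a (0.42), Wnt2 (0.22), Wnt6 (0.84), Dact1 (0.15) and Pygo1 (0.52), and KCl against bicuculline turned for Fzd10 (0.81) and Axin1 (0.23).

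Median scaling moved the median of all genes by -0.16 for KCl and -0.12 for KCl against bicuculline, and spike-in scaling by -0.23 for each. Median scaling gave 1542 genes higher with bicuculline, 2889 with KCl and 2468 for KCl against bicuculline, with 7 members higher under KCl, 19 other pathway genes lower under KCl and 14 higher in KCl against bicuculline. Spike-in scaling gave 1243 genes higher and 1251 lower with bicuculline, 2186 higher with KCl and 1264 higher for KCl against bicuculline. It gave 4 members higher and 8 lower with bicuculline, 6 higher with KCl and 7 higher for KCl against bicuculline, and for the other pathway genes 7 and 4, 15 and 18, and 7 and 11. Quantile normalization, with or without normexp, gave 10 other pathway genes lower in KCl against bicuculline. Reversals of the KCl difference were Fzd8 at -0.070 (quantile), -0.032 (normexp and quantile) and -0.0048 (spike-in), Wnt5a at -0.051 (normexp and quantile), Dkk3 at -0.00079 (median) and -0.065 (spike-in) and Fzd1 at -0.045 (spike-in). In KCl against bicuculline, Wnt2 (-0.029) and Dact2 (-0.053) reversed with spike-in scaling, and the mean of all probes of Apc gave 0.10 for KCl and 0.21 for KCl against bicuculline. The cause was not tested in any of these.

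Leaving out each array in turn gave 2123 to 2445 genes higher and 3133 to 3821 lower with bicuculline, 4420 to 4983 and 4810 to 5028 with KCl, and 4426 to 4990 and 3762 to 4021 for KCl against bicuculline. The members gave 5 to 8 and 9 to 13, 11 to 12 and 9 to 11, and 12 to 15 and 4 to 5, and the other pathway genes 11 to 13 and 12 to 14, 26 to 29 and 9 to 11, and 26 to 31 and 6 to 7. With the replicate block, 95 of the members' 99 values kept their direction and call; Wnt7a with bicuculline was lost (adjusted p = 0.0766) and 3 were gained, Tcf7l2 with bicuculline (0.0139) and Fzd7 (0.0145) and Wnt6 (0.0464) in KCl against bicuculline. The block in the 6 control and bicuculline arrays alone, added after seeing the data, lost Wnt7a (0.0839) and gained Wnt3 (0.0333), Wnt5b (0.00408) and Tcf7l2 (0.0329). Slide as a block kept 85 of 99 values. Signal close to background limits what can be said of Wnt1, Wnt6, Wnt9b, Wnt10a and the 10 genes not tested.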
